A study of Mus musculus with 2 samples.

Results

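The JAK, STAT, SOCS and cytokine receptor genes were examined in an RNA sequencing library of 4T1 cells, a breast cancer line that arose in a BALB/c mouse and is often grafted back into such mice to study tumour growth and spread. The set was a fixed list of symbols: JAK kinases, STAT transcription factors, their SOCS, PIAS and phosphatase inhibitors, receptor chains that signal through them, and several of the ligands. All 45 listed symbols were found, each once, among the 54532 genes of the deposited table. The series holds 2 samples of 4T1 cells, 1 wild type and 1 with the gene Cd28 knocked out, and neither the way the knockout was made nor the number of clones is given in the sources used here. One count column carries the title of the knockout sample. The other column of per-sample values has a name that matches no sample label, so no library of the wild-type cells was used here. Every value below is a level in the knockout library alone, for which there is no replicate, and no difference between the genotypes was measured.

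JAK kinases sit on the cytoplasmic tails of cytokine receptors that have no kinase of their own. When a cytokine brings the receptor chains together, the JAKs phosphorylate each other, the receptor and the STAT proteins that dock there, and the STATs then pair and move to the nucleus to switch on genes. Among those genes are SOCS family members, whose products bind the receptor or the JAK and shut the signal off. In tumour cells this pathway is best known for carrying interferon signals, which raise antigen presentation and PD-L1, and for the growth and inflammatory signals of the IL-6 family.

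Reads assigned to genes numbered 15565990 in this library. A level is either the reads of a gene per 1000000 assigned reads (CPM) or, where genes are compared with each other, its TPM, the count divided by gene length and scaled so that all genes sum to 1000000. Intervals are exact Poisson 95% intervals and cover counting error only, since there is no replicate. The reads carry no molecular identifiers, so copies of the same molecule cannot be told apart and the intervals may be too narrow. All 6 epithelial markers were detected, whereas all 6 T and NK cell markers, including Cd3d, Cd3e and Cd3g, had 0 reads, the 3 B cell markers held 2 reads in all, and the 6 myeloid markers held 5. Of the fibroblast markers, Pdgfra had 839 reads and Col1a1 59, while the remaining 4 had 0. The 6 endothelial markers held 22 reads, of which Vwf had 15, and Pecam1, Kdr and Tie1 had 0. The targeted gene, Cd28, had 8 reads, a count that does not show whether its transcript was edited.

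Of the 45 genes, 40 were detected, that is, had at least 10 reads, against 52.2% of all 22046 protein-coding genes in the table. The genes were chosen as a known pathway, and nothing particular to them is read from that difference. Stat4, Csf3r and Csf2ra had 0 reads, Il6 had 6 and Csf2rb had 7. The TPM of 18 genes exceeded 24.4, the median of detected protein-coding genes, compared with 26.1% of all protein-coding genes. The median TPM of the 45 genes was 16.6, percentile 38.3 among the 11497 protein-coding genes detected, and that of the 40 detected genes was 22.5. Together the 45 genes took 0.231% of the library's reads. Levels ran from Ptpn11 at 116 TPM, at percentile 90.3, down to the genes with 0 reads. Ranked by TPM, 41 neighbouring pairs could be compared, and the counting interval of their ratio included 1 for 30 of them. The order of most neighbours is thus not settled by the counts.

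**Figure D1:**
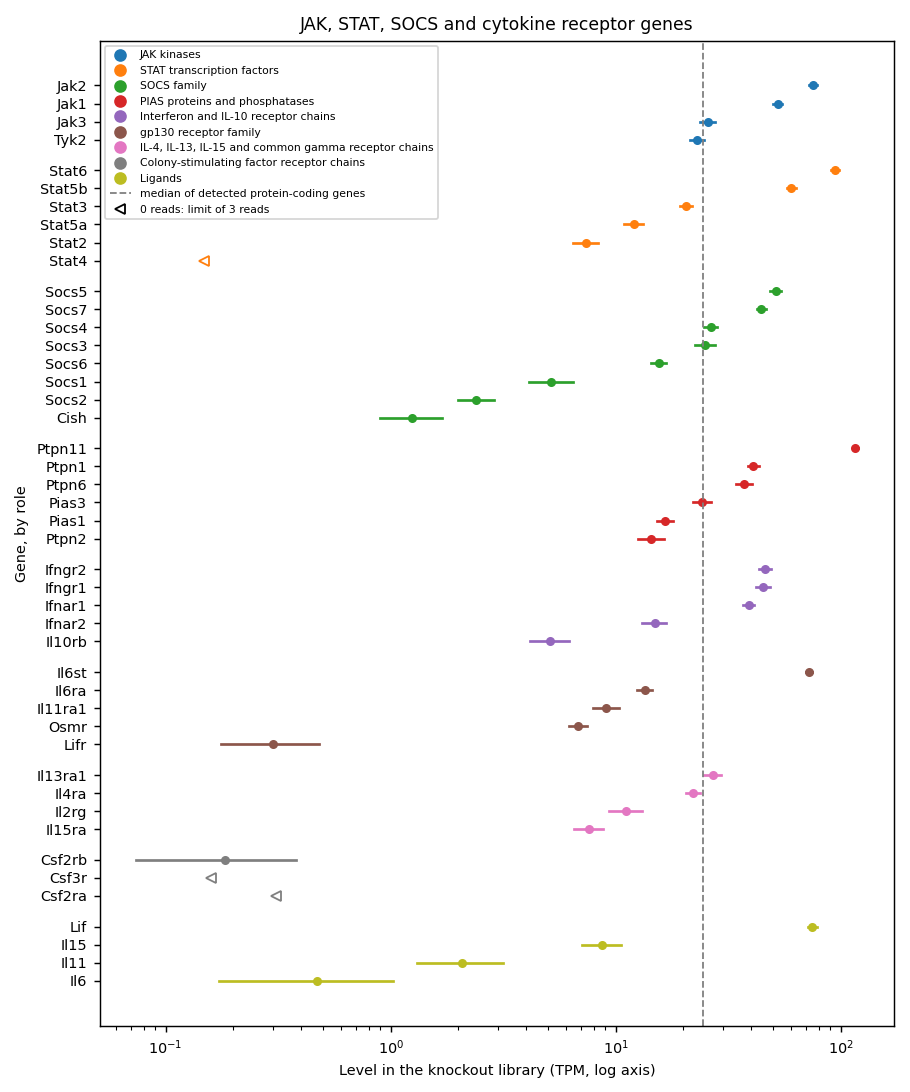
Level of each gene in the knockout library as TPM on a log axis, grouped by role, with exact Poisson 95% intervals as bars; open triangles mark the limit of 3 reads for genes with 0 reads, and the dashed line is the median of detected protein-coding genes, 24.4 TPM. Ptpn11, Stat6, Jak2, Lif and Il6st lie farthest to the right, between 72.4 and 116 TPM, and the colony-stimulating factor receptor chains lie at the left edge.

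All 4 JAK kinase genes were detected, against 52.2% of all protein-coding genes. Jak2 (chromosome 19, 29251828 onward in mm10), which serves receptors for interferon gamma and for many growth hormones and cytokines, had 1988 reads, or 75.4 TPM (72.1 to 78.7). Jak1 (chromosome 4), used by interferon, gp130 and common gamma chain receptors, had nearly the same number of reads, 1987, but on a longer gene, so that its level was 52.4 TPM (50.1 to 54.8). Tyk2 (chromosome 9), a partner of the type I interferon receptor, was lower at 23 TPM (21.4 to 24.6).

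Jak3 (chromosome 8), best known from lymphocytes, where it binds the common gamma chain, had 719 reads, or 25.6 TPM (23.8 to 27.6). Its interval overlaps that of Tyk2 (23 TPM), but overlap does not show equal levels, and the ratio of this pair was not computed. Jak3 shares exons with Insl3 on the same strand, which had 17 reads, and 92.2% of the 100-base stretches of the Jak3 transcript occur in no other annotated gene. By TPM, Jak1 exceeded Tyk2 by 2.28-fold (exact 95% interval 2.1 to 2.48) and Jak3 by 2.05-fold (1.88 to 2.23). The order of Jak1 and Jak2 depended on the gene length used. Jak2 was 1.44-fold higher (1.35 to 1.53) with the deposited lengths, which count every annotated exon, whereas with the longest transcript of each gene the ratio of Jak1 to Jak2 was 1.02 (0.963 to 1.09).

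Jak2 lies beside Cd274, the gene of PD-L1, which the series' title names; this neighbour was chosen for that reason after its values had been seen. The end of Jak2 and the start of Cd274 are 54.4 kb apart. Cd274 had 82 reads, or 4.32 TPM (3.43 to 5.36), so that Jak2 was 17.5-fold higher (14 to 22). Between the start of Jak2 and the end of Cd274 lie Insl6 at 63.8 TPM, Plgrkt at 19.9 TPM and Rln1, which had 0 reads. Genes of this stretch thus ranged from not detected to above the median.

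Of the 6 STAT genes listed, 5 were detected and 2 exceeded the median, against 52.2% and 26.1% of all protein-coding genes. Stat6 (chromosome 10, 127642986 to 127660957, plus strand), the factor of IL-4 and IL-13 signals, was the highest with 2181 reads, or 94.5 TPM (90.5 to 98.5), at percentile 87.4. Stat2 (128270559 to 128292849 on the same chromosome and strand), which with IRF9 carries type I interferon signals, had 229 reads, or 7.37 TPM (6.44 to 8.39), at percentile 21.1. Stat6 was 12.8-fold higher than Stat2 (11.2 to 14.8). Between them lie 27 other protein-coding genes, of which 14 were detected. These 27 ranged from 0 reads, for 9 of them including several retinol dehydrogenase genes, to 735 TPM for Atp5b, a subunit of the mitochondrial ATP synthase.

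Stat5b, Stat5a and Stat3 lie next to each other on chromosome 11, within 159 kb (100780731 to 100939540), with no other protein-coding gene between them. STAT5 proteins carry prolactin, growth hormone and IL-2 family signals and are central to the mammary epithelium, and STAT3 carries the signals of the IL-6 family. Stat5b had 1754 reads, or 60.4 TPM (57.6 to 63.3), at percentile 77.9. Stat3 had 1022 reads, or 20.5 TPM (19.2 to 21.7), at percentile 44.6. Stat5a had 449 reads, or 12 TPM (10.9 to 13.2), at percentile 30.2. The counting intervals of the 3 genes do not overlap.

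Between the STAT5 paralogs, Stat5b was 5.03-fold higher than Stat5a (4.53 to 5.59). The STAT5 transcripts share 265 of their 100-base stretches, which leaves 94.8% of the Stat5b stretches and 93% of the Stat5a stretches to the gene itself, so the split of reads is uncertain over a small part of each. Stat3 and Stat5a run in opposite directions and overlap over 72 bases, where reads cannot be assigned without strand. Stat3 was 1.7-fold higher than Stat5a (1.52 to 1.91) and Stat5b 2.95-fold higher than Stat3 (2.73 to 3.19). The longest Stat5a transcript has 3958 bases against the 7133 of the deposited length, and with that length its level was 17.1 TPM. With the longest transcripts of both STAT5 genes, Stat5b was 2.97-fold higher than Stat5a (2.67 to 3.3). Stat4, the IL-12 factor of T and NK cells, had 0 reads. The limit of 3 reads set for such a gene is 0.193 CPM, and the exact Poisson interval ends at 0.237 CPM. Stat3 was at least 138-fold higher when Stat4 is set to 3 reads, and the lower end of the exact interval of their ratio was 112. Another gene's exons cover 26.7% of the Stat4 exon length, and that gene, Gm28177, had 2 reads.

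**Figure D2:**
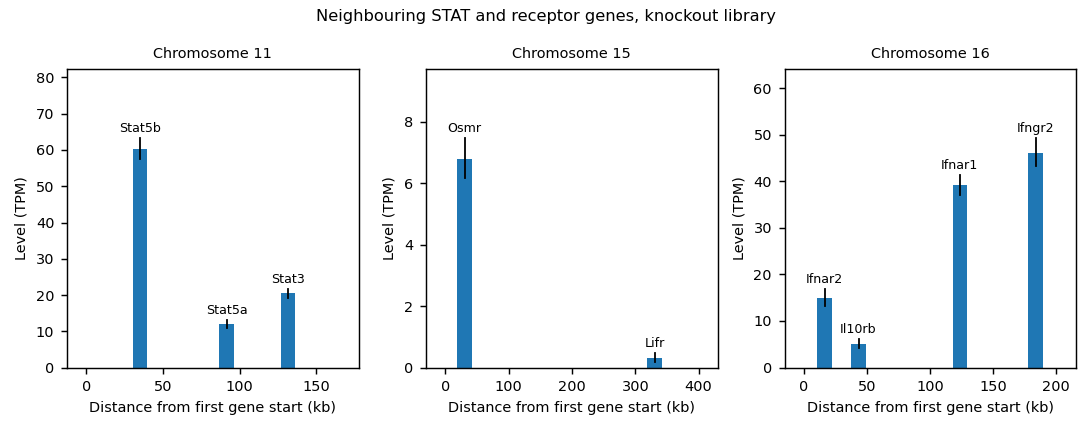
TPM of neighbouring genes on chromosomes 11, 15 and 16 in the knockout library. The horizontal axis gives the distance in kb from the lower coordinate of the first gene of each stretch. Bars show the level and black lines the exact Poisson 95% interval. Stat5b (60.4 TPM) stands above Stat5a (12) and Stat3 (20.5), Osmr (6.8) above Lifr (0.301), and Ifnar1 (39.1) and Ifngr2 (46.2) above Ifnar2 (14.9) and Il10rb (5.11).

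All 8 SOCS family genes passed 10 reads and 4 lay above the median of detected genes, against 52.2% and 26.1% of all protein-coding genes. The median of the 8 was 20.2 TPM. The members best known as cytokine-induced feedback inhibitors were low or near the median. Cish (chromosome 9, 107296026 onward, plus strand), the STAT5-induced inhibitor from which the family takes one of its names, had 42 reads, or 1.25 TPM (0.899 to 1.69), the lowest of the family. Socs2 (chromosome 10), which limits growth hormone signalling, had 120 reads, or 2.4 TPM (1.99 to 2.87). Socs1 (chromosome 16), the inhibitor of interferon signalling, had 79 reads, or 5.18 TPM (4.1 to 6.46).

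Socs3 (chromosome 11, 117966079 onward, minus strand), which binds gp130 and limits STAT3, was higher, with 377 reads, or 24.9 TPM (22.4 to 27.5), at percentile 50.7. It exceeded Socs1 by 4.8-fold (3.76 to 6.2), and Socs2 exceeded Cish by 1.92-fold (1.34 to 2.8). Another gene's exons cover 11.5% of the Cish exon length, those of Gm17041 and Gm17040 on the opposite strand, which had 0 reads each. The Socs2 level rests on its length, since the deposited 9531 bases are 2.25 times its longest transcript, and with that transcript its level was 4.26 TPM. With the longest transcripts Socs2 exceeded Cish by 3.16-fold (2.21 to 4.61).

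The remaining SOCS genes, whose products are less tied to cytokine induction, were higher than Cish, Socs1 and Socs2. Socs5 (chromosome 17) had 1187 reads, or 51.5 TPM (48.6 to 54.5), and Socs7 (chromosome 11) had 1692 reads, or 44.4 TPM (42.3 to 46.6). Socs4 (chromosome 14) had 954 reads, or 26.4 TPM (24.8 to 28.2), and Socs6 had 671 reads, or 15.6 TPM (14.4 to 16.8). With the deposited lengths the intervals of these 4 genes do not overlap with each other. Socs5 was 1.95-fold higher than its closest relative Socs4 (1.79 to 2.12), and Socs7 was 2.85-fold higher than Socs6 (2.61 to 3.13). The deposited 4392 bases of Socs5 are fewer than its longest transcript, 4648, and its merged exons, 6416. With the longest transcripts Socs5 and Socs7 were at 38.5 and 36.4 TPM, and by reads alone Socs7 was the higher. Socs5 was 1.84-fold higher than Socs4 (1.69 to 2.01) and Socs7 2.17-fold higher than Socs6 (1.98 to 2.38) with the longest transcripts. By reads alone Socs5 exceeded Socs4 by 1.24-fold (1.14 to 1.36). Of the Socs6 stretches 91.5% are its own, the rest being shared with Gm9449.

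STAT dimers such as those of STAT3 and STAT5 bind the palindrome TTCNNNGAA, which reads the same on both strands. The feedback genes Cish and Socs3 are textbook STAT targets. Start-site windows from RefSeq (GRCm38.p6; 250 bases before to 50 after each start) were found for 37 of the 45 genes, 45 windows in all. Of the SOCS genes, Socs2, Socs5, Socs6 and Socs7 had no window and were not searched. The motif was present for 4 of the 37 genes: in 2 copies for Cish, and in 1 copy each for Socs3, Ifnar1 and Ifnar2. No other motif was searched, so STAT sites of another form would be missed. It was in 8.89% of the windows of these genes and in 8.3% of all 32851 windows, while 0.457% of all windows held it more than once, as the Cish window did. The stretches of 120 bases that hold the motif in the SOCS family members are shown because these are the feedback inhibitors of the pathway; they are read 5′ to 3′ on the strand of the gene, with the motif in capitals.
Cish, chr9:107296559-107296678, plus strand: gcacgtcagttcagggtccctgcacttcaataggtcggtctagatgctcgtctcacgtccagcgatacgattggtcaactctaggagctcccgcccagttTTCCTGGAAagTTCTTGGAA
Socs3, chr11:117969447-117969566, minus strand: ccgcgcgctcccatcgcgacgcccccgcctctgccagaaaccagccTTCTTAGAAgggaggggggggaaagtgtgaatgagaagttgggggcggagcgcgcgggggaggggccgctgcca
Counted from the RefSeq start, the Cish motifs begin at the first base and at base 12 of the transcript. In the Socs3 stretch the motif spans bases -154 to -146, counted back from the RefSeq start, and these bases lie inside the deposited gene. In 34 of the 45 windows the first 30 bases after the start were found in a GENCODE vM21 transcript of the gene. The windows of Cish and Ifnar2 were among them, and those of Socs3 and Ifnar1 were not. The bases could lie anywhere in the transcript, so finding them does not fix the start. All motif positions thus rest on the RefSeq starts. The Cish window lies inside the deposited gene, which starts at 107296026. The Socs3 window, 117969317 to 117969616, also lies inside its deposited gene, which on the minus strand starts at 117970047. The bases before these deposited starts were not searched. A match describes these letters only and not a bound site. The levels of the 4 genes with the motif ran from 1.25 TPM for Cish to 39.1 TPM for Ifnar1.

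All 6 PIAS and phosphatase genes passed 10 reads and 3 had a TPM over the median, against 52.2% and 26.1% of all protein-coding genes. Ptpn11 (chromosome 5, 121130533 onward, minus strand), which encodes SHP2, a phosphatase that links receptors to the RAS pathway and also acts on STAT signalling, was the highest of all 45 genes with 4571 reads, or 116 TPM (113 to 120). Ptpn6 (chromosome 6), which encodes its relative SHP1, best known from blood cells, had 548 reads, or 37.3 TPM (34.2 to 40.5). Ptpn11 was 3.12-fold higher (2.85 to 3.41). Of the Ptpn6 stretches 95.4% are its own, and an antisense gene over its exons, Gm20531, had 1 read. The 15 blood cell markers of the T, NK and B cell and myeloid lists held 7 reads in all. Of these markers 10 were at 0, among them Ptprc and Cd3e, and the remaining ones, Cd79b, Lyz2, S100a8, Csf1r and Itgam, had 1 or 2 reads each.

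Ptpn1 (chromosome 2), which encodes PTP1B, a phosphatase of JAK2 and TYK2, had 1186 reads, or 40.9 TPM (38.6 to 43.3). Ptpn2 (chromosome 18), which encodes the phosphatase of JAK1 and JAK3 that limits interferon gamma signals in tumour cells, had 236 reads, or 14.4 TPM (12.6 to 16.4). Ptpn1 was 2.84-fold higher than Ptpn2 (2.47 to 3.28). Pias3, an inhibitor of STAT3, and Pias1, both SUMO ligases, had 498 and 593 reads. By TPM Pias3 was 1.46-fold higher (1.3 to 1.65), at 24.2 against 16.6, whereas by reads alone Pias1 was 1.19-fold higher (1.06 to 1.34).

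Receptor chains are described by the signal they carry. The interferon gamma receptor was the receptor with both chains above the median. Ifngr1 (chromosome 10, 19591949 onward), the chain that binds the ligand and JAK1, had 675 reads, or 45.2 TPM (41.9 to 48.7). Ifngr2 (chromosome 16), the chain that brings JAK2, had 912 reads, or 46.2 TPM (43.2 to 49.3). The ratio of Ifngr1 to Ifngr2 was 0.979 (0.885 to 1.08), an interval that includes 1. This ratio depended on the gene length: it was 1.3 (1.17 to 1.44) with the longest transcript of each gene and 0.74 (0.669 to 0.818) by reads alone, and neither of those intervals includes 1. The type I interferon receptor was less even. Ifnar1 had 1219 reads, or 39.1 TPM (37 to 41.4), and Ifnar2, the chain with the higher affinity for the ligand, had 260 reads, or 14.9 TPM (13.1 to 16.8), so that Ifnar1 was 2.63-fold higher (2.3 to 3.02).

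Ifnar2, Il10rb, Ifnar1 and Ifngr2 lie in that order, all on the plus strand, within 193 kb of chromosome 16 (91372783 to 91565623). Il10rb, the chain shared by the receptors for IL-10, IL-22 and interferon lambda, had 102 reads, or 5.11 TPM (4.16 to 6.2), the lowest of the 4. Ifnar2 was 2.92-fold higher than Il10rb (2.31 to 3.7), the gene next to it. The annotation also holds Gm21970, a protein-coding gene that shares exons with both Ifnar2 and Il10rb on the same strand and had 0 reads. Its exons cover 14.9% of the Il10rb exon length and 9.46% of that of Ifnar2, and 73% of the Il10rb stretches are its own, so reads of these genes are less certain than those of Ifnar1 and Ifngr2, whose stretches are all their own. The effect of the shared exons on the counts was not tested.

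The gp130 receptors had an abundant common chain and lower private chains. Il6st (chromosome 13, 112464070 onward), which encodes gp130, the chain shared by the receptors for IL-6, IL-11, LIF, oncostatin M and others, had 4215 reads, or 72.4 TPM (70.2 to 74.6), at percentile 82. Il6ra, the chain that binds IL-6, had 610 reads, or 13.5 TPM (12.4 to 14.6), and Il6st exceeded it by 5.38-fold (4.94 to 5.87). Il11ra1, the IL-11 chain, had 213 reads, or 9.08 TPM (7.9 to 10.4), and Il6st was 7.97-fold higher (6.94 to 9.19). The Il11ra1 count is uncertain, since 68.5% of its stretches are its own and the near-identical genes Gm13305 and Il11ra2, the latter listed under 3 IDs, had 0 reads each.

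The lower coordinates of Osmr (minus strand) and Lifr (plus strand) lie 277 kb apart on chromosome 15, with no other protein-coding gene between these genes. Osmr, the oncostatin M chain, had 432 reads, or 6.8 TPM (6.17 to 7.47), and Il6st was 10.6-fold higher (9.64 to 11.8). With the longest transcript, which has 5491 bases against the deposited 12113, the Osmr level was 11.9 TPM and Il6st was 6.17-fold higher (5.59 to 6.83). Lifr, the chain that LIF binds, had 17 reads, or 0.301 TPM (0.175 to 0.482), at percentile 0.417, close to the limit of detection. Il6st was 241-fold higher than Lifr (150.2 to 414).

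The IL-4 and IL-13 receptor chains lay near the median. Il4ra (chromosome 7), the chain shared by both IL-4 receptors, had 695 reads, or 22.1 TPM (20.5 to 23.8). Il13ra1 (chromosome X), which with Il4ra forms the type II receptor found on non-blood cells, had 527 reads, or 27.1 TPM (24.8 to 29.5). Il13ra1 was 1.23-fold higher than Il4ra by TPM (1.09 to 1.38) and Il4ra 1.32-fold higher by reads alone (1.18 to 1.48). With the longest transcripts the ratio of Il4ra to Il13ra1 was 0.931 (0.83 to 1.05), an interval that includes 1. Il2rg (chromosome X) encodes the common gamma chain of the type I receptor and of the IL-2 family in lymphocytes. It had 139 reads, or 11.1 TPM (9.33 to 13.1), and Il4ra was 1.99-fold higher (1.66 to 2.4). With the longest transcripts Il4ra was 1.59-fold higher (1.32 to 1.92), and by reads alone 5-fold higher (4.16 to 6.04). Of the Il2rg stretches 59.8% are its own, the lowest share among the 45 genes, because the gene Gm20489 shares its exons; that gene had 0 reads. Il15ra, which presents IL-15, had 177 reads, or 7.59 TPM (6.51 to 8.79), and 11.5 TPM with its longest transcript.

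The colony-stimulating factor receptor chains were not detected. Csf3r, the G-CSF receptor of neutrophils, and Csf2ra, the private chain of the GM-CSF receptor, were each at 0 reads, for which the limit of 3 reads is 0.193 CPM. Csf2rb, the common beta chain, had 7 reads, or 0.183 TPM (0.0737 to 0.378), and its near copy Csf2rb2 had 4.

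Among the ligands, Lif, which encodes leukaemia inhibitory factor, was the one above the median. Lif (chromosome 11, 4257557 onward, plus strand) had 1707 reads, or 74.8 TPM (71.3 to 78.5), at percentile 82.7. Its TPM was 35.9-fold that of Il11, which had 22 reads (interval 23.6 to 57.4), and 159-fold that of Il6, which had 6 (72.8 to 433). Lif was 249-fold higher than Lifr (155 to 428). Il15 (chromosome 8) had 103 reads, or 8.69 TPM (7.09 to 10.5), and the ratio of Il15 to Il15ra was 1.14 (0.889 to 1.47), an interval that includes 1. With the longest transcripts it was 0.706 (0.548 to 0.905) and by reads alone 0.582 (0.452 to 0.746), so that Il15ra was then the higher. Il6 was at 0.035 of the level of Il6ra (0.0128 to 0.0766).

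Over the 30 pairs of partners, paralogs and ligand with receptor that were compared, 28 gave a ratio, and with the deposited lengths the counting interval left out 1 for 26 of them. With these lengths the pairs of Ifngr1 with Ifngr2 and of Il15 with Il15ra were those whose interval included 1. With the longest transcripts the number was also 26, but the pairs whose interval included 1 were Jak1 with Jak2 and Il4ra with Il13ra1. The pairs with Stat4 and with Csf2ra had a gene at 0 reads. These intervals compare 2 genes of 1 library and hold no spread between cultures.

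**Figure D3:**
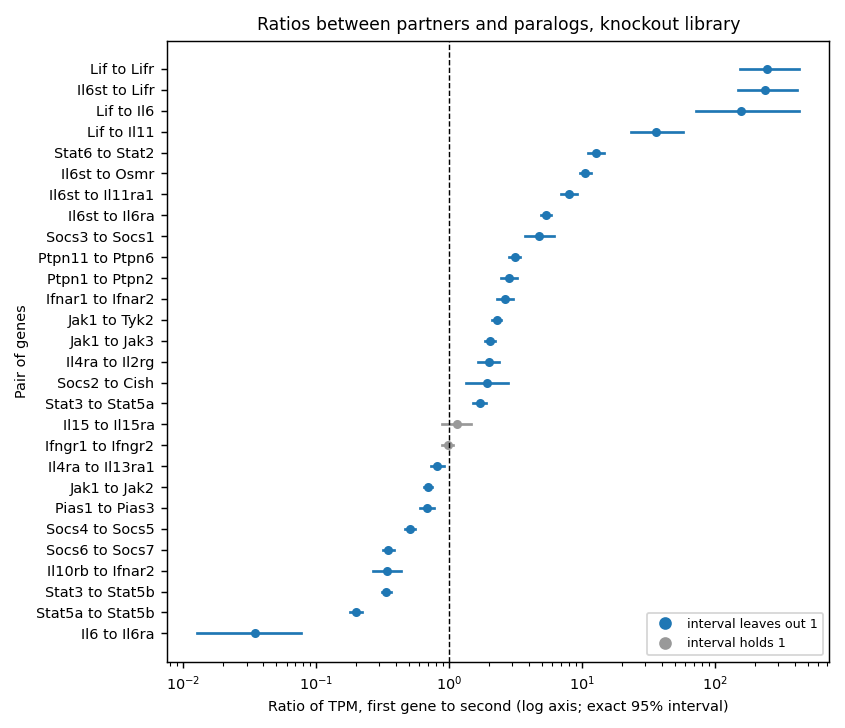
Ratio of TPM (deposited gene lengths) of the first gene to the second for the 28 pairs with a ratio, on a log axis with exact conditional 95% intervals; the dashed line marks equal levels, and grey points are pairs whose interval includes 1. Lif to Lifr (249), Il6st to Lifr (241) and Lif to Il6 (159) lie at the top, and Il6 to Il6ra (0.035) at the bottom.

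The chains were then set side by side for 19 receptors, a list drawn up after values had been seen. For 11 of them every chain had at least 10 reads, 7 had a chain at 0 reads, and the remaining receptor, that of IL-12, had 284 reads on Il12rb1 and 4 on Il12rb2. The receptors with every chain detected were those for IL-6, LIF, oncostatin M, IL-11, IL-27, IL-15, interferon gamma, type I interferon and interferon lambda, and both IL-4 receptors. Their lowest chains ranged from 0.301 TPM for Lifr to 45.2 TPM for Ifngr1. The interferon lambda receptor had 278 reads on Ifnlr1 and the 102 of Il10rb. The IL-15 receptor had 16 reads on Il2rb, its signalling chain, or 0.712 TPM. The receptors for IL-10 and IL-22 had Il10rb but 0 reads on Il10ra and Il22ra1. The TSLP receptor had 328 reads on Crlf2, at 41.8 TPM, and 0 on Il7r. These are mRNA levels, and no surface protein was measured.

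A single ligand was listed for each of 18 of the 19 receptors, and the counts depend on that choice. For the type II IL-4 receptor this was Il13, with 7 reads. Il4, with 38 reads, was listed for the type I receptor alone. Every chain and the listed ligand were detected for 4 of the receptors, those listed with Lif, Il11, Il4 and Il15. For another 4 the ligand was detected and a chain was not. Csf3, which encodes G-CSF, had 889 reads, or 120 TPM, with 0 reads on Csf3r. Csf2, which encodes GM-CSF, had 20 reads and 0 on Csf2ra. Clcf1, a ligand of the CNTF receptor, had 600 reads and Cntfr 0, and Il7 had 278 reads and Il7r 0. The interferon ligands examined, Ifng and Ifnb1, had 0 reads each.

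**Figure D4:**
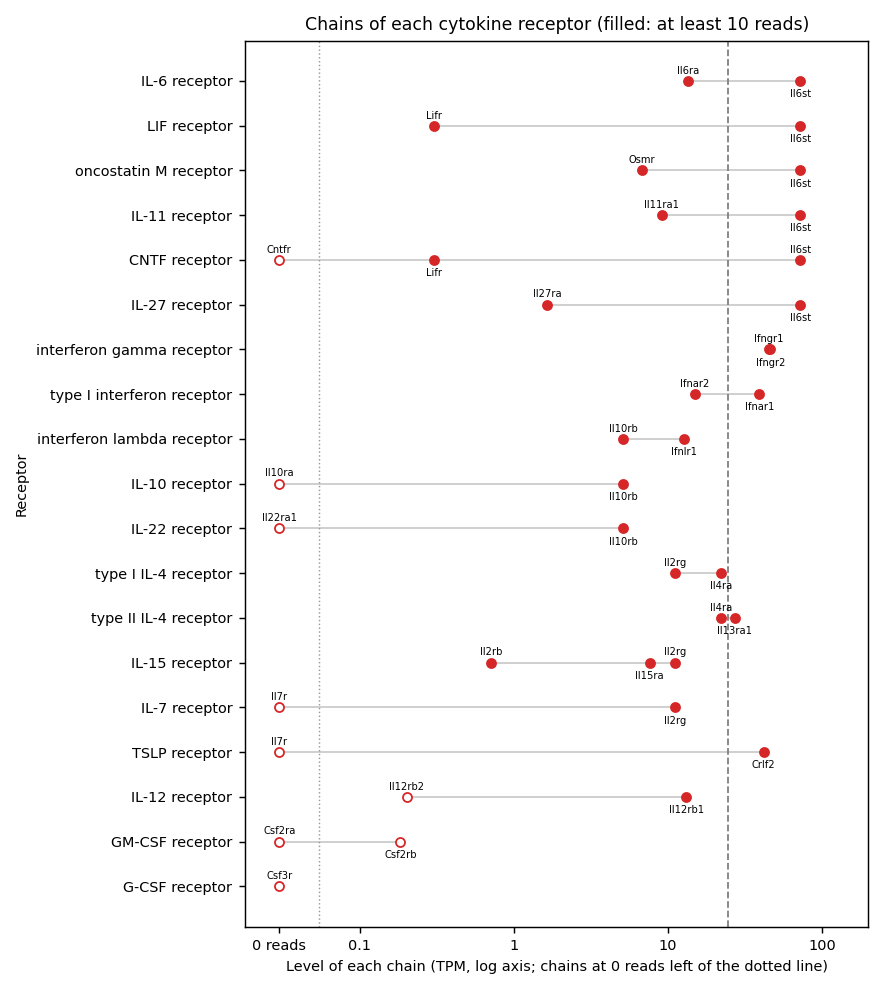
TPM of each chain of 19 cytokine receptors in the knockout library, on a log axis; each row is a receptor, filled points are chains with at least 10 reads, chains with 0 reads stand left of the dotted line, and the dashed line is the median of detected protein-coding genes. The chains of the interferon gamma receptor lie together at 45.2 and 46.2 TPM, and those of the LIF receptor stand 241-fold apart.

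Other genes of the pathway were taken from 5 lists, and nothing particular to the lists is read from their counts. Of all protein-coding genes, 52.2% were detected, 26.1% exceeded the median and 37.4% had 0 reads. Of 27 further receptor chains 8 were detected, 1 exceeded the median and 15 had 0 reads. Crlf2 was the highest, followed by Il12rb1 at 13.2 TPM, Ifnlr1 at 12.7 and Ghr, the growth hormone receptor, at 12.4. Epor, Prlr and Cntfr were among those with 0 reads, Prlr being the prolactin receptor of the normal mammary epithelium. Of 32 further ligands 8 were detected and 4 exceeded the median. These were Csf3, Clcf1 at 30.8 TPM, Ctf1, which encodes cardiotrophin, at 28.6 and Il23a, a chain of IL-23, at 26.1. Il12b, which encodes the other chain of IL-23, had 0 reads.

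Listed intracellular parts of the pathway were nearly all detected, against 52.2% of all protein-coding genes, of which 26.1% exceeded the median. All 10 adaptors and co-factors passed 10 reads, 6 of them with a TPM over the median. The highest were Shc1 at 106 TPM, Grb2 at 92.3, Sh2b1, which enhances JAK2 activity, at 81.2 and Stam at 33.7. Irf9, the partner of STAT2, had 492 reads, or 17.4 TPM. Of 10 further negative regulators and parts of the ubiquitin ligase that SOCS proteins recruit, 9 were detected and 7 exceeded the median. The elongin genes Elob and Eloc had 257 and 60.2 TPM, the ring protein gene Rnf7 had 104 and the scaffold gene Cul5 had 17.1. Sh2b3, which encodes the adaptor LNK, had 61.1 TPM, and Ptprc, which encodes the leukocyte phosphatase CD45, had 0 reads. Usp18, an interferon-induced brake on the type I interferon receptor, had 22 reads, or 1.5 TPM.

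All 16 genes named as STAT3 or STAT5 targets passed 10 reads and 11 exceeded the median, against 52.2% and 26.1% of all protein-coding genes. The median of the 16 was 87.8 TPM, at percentile 85.9. Ccnd1, which encodes cyclin D1, was the highest at 568 TPM, followed by Myc at 529, Junb at 349 and Cebpb at 270.01. Levels within the list differed widely: Lcn2 had 91 reads, Cebpd 163 and Fos 16. Many of these genes answer to other pathways as well, so the list is a description of levels and no measure of STAT activity.

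The gene length behind TPM moved several levels. The deposited length equalled the merged exon length of the GENCODE vM21 annotation for 41 of the 45 genes and differed for 4 (Socs5, Socs6, Il11 and Csf2ra). With the longest annotated transcript in its place, 4 genes changed sides of the median. Il13ra1, Socs4 and Socs3 were then below it and Tyk2 above it. Of the 45 genes, 30 had a transcript whose 100-base stretches were all their own, and for 6 (Il2rg, Il11ra1, Il10rb, Stat4, Cish and Socs2) less than 90% were.

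**Figure D5:**
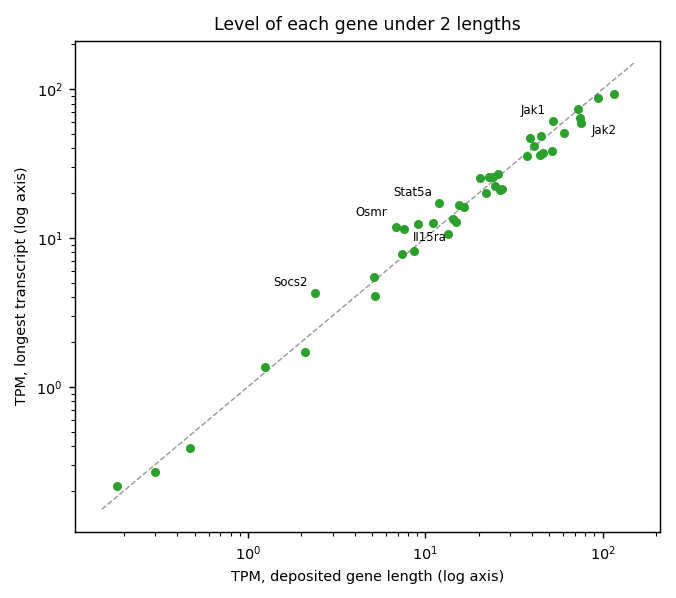
TPM of each gene with at least 1 read using the longest annotated transcript (vertical) against TPM using the deposited gene length (horizontal), both on log axes; the dashed line marks equal values. Socs2, Osmr, Il15ra and Stat5a lie farthest above the line, and Jak1 and Jak2 move towards each other, from 52.4 and 75.4 to 61.1 and 59.6 TPM.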

How the data were processed

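Poly(A) RNA of 4T1 cells was sequenced from random-primed cDNA of fragmented mRNA, per the labels' protocols, which name no strand-marking step. The deposited table holds raw read counts per gene, made with CASAVA, HISAT2 2.0.5 and featureCounts 1.5.0-p3 on mm10 per the submitters' processing notes. Which annotation release, strand setting and rule for multiply mapped reads were applied is not given in the sources used here. 1 column of per-sample values matched no label and was not used, so the planned comparison with wild type, with its alternative scaling, was not made. The other deposited values, gene lengths in bases, were used for TPM.

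From the counts of 1 library, CPM, TPM, percentiles among protein-coding genes with at least 10 reads and exact Poisson intervals were computed. Ratios of TPM carry exact conditional binomial (Clopper-Pearson) intervals, and a count of 0 was given the limit of 3 reads. With 1 library no test between conditions was possible. Longest transcripts, exon overlaps and the percentage of 100-base stretches of the longest protein-coding transcript found in no other gene came from GENCODE vM21 (GRCm38). Interval and sharing computations were tested on simulated data. Of further lists, up to 4 genes with the highest TPM were named by rule, and other genes were chosen after their values were seen. The members and lists were chosen with earlier results of these data known. Some genes of the lists are not reported here. Symbols listed under several IDs were taken at the lowest ID. Alternatives were the read minimum, the length, the total and the reference genes. Python 3.11.15, numpy 2.4.6, pandas 2.3.3, scipy 1.17.1 and matplotlib 3.10.9 were used.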

Additional observations from a re-analysis of the deposited data

How the results depend on the processing

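The number of the 45 genes detected was 40 at 10 reads, 42 at 1 or 3 reads and 36 at 100. The number above the median was 18, against 21 without length correction, 16 with the longest transcript, 22 with a reference of genes with at least 1 read and 22 with a reference of all biotypes. Leaving mitochondrial and ribosomal protein genes out of the total raised the median TPM of the 45 genes from 16.6 to 20.2, by the same factor for every gene. Among the ratios, Jak1 to Jak2 turned to 1.02 with the longest transcript, and without length correction Il4ra to Il13ra1 turned to 1.32 and Pias1 to Pias3 to 1.19. All follow from the lengths of the genes. With the longest transcript 24 of the 45 levels moved outside their counting interval. So did 16 of 30 ratios, not counting Jak1 to Jak2, which also left its interval. Ifngr1 to Ifngr2 (1.3) and Il15 to Il15ra (0.706) went to the other side of 1. Of the 28 ratios, 26 had an interval that left out 1 with either length, 24 of them the same pairs, and 27 without length correction, 25 of them the same. The ratio moved by over 1.5 times for 4 pairs with the longest transcript and for 14 without length correction. Receptors with every chain detected numbered 11, against 12 at 1 read and 8 at 100, alternatives chosen after seeing the data. Genes detected over the 5 further lists numbered 51, against 63 at 1 read and 41 at 100. No paired analysis was possible because the knockout library alone was analysed, so no replicate could be left out either, and depth limits the counting error only.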
